A study of Mus musculus with 9 samples.

Results

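The genes of leptin and adiponectin receptor signalling were described in the livers of 9 female mice. The members were chosen by name: the leptin receptor Lepr, the adiponectin receptors Adipor1 and Adipor2, and 4 genes that act below the leptin receptor, Jak2, Stat3, Socs3 and Ptpn1. A probe set was taken where the array annotation gave it a single symbol and that symbol was a member. This gave 8 probe sets of 7 genes, out of 21780 single-symbol probe sets of 19935 genes. Socs3 had 2 probe sets, 10393449 and 10383010, and each of the other genes had 1.

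The study set calorie restriction (CR) beside loss of DGAT1, an enzyme that makes triglycerides, and asked which liver mRNAs each of them altered. The 3 groups of 3 mice, all female, 15 to 16 months of age and on a C57BL/6J background, were compared. Wild-type mice fed standard chow ad libitum (WTAL) were the controls. Wild-type mice on a short course of CR (WTCR), in which daily calories were lowered in 2 successive steps, and Dgat1-/- mice fed ad libitum (Dgat1-/-AL) were each set against them. The Dgat1-/- mice lack the gene in every tissue, so an effect of the liver enzyme and an effect of its loss elsewhere cannot be told apart. Each array held the liver of 1 mouse.

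Some arrays stood apart, and results that rest on them are given with and without them. The Dgat1 log2 signal was 8.56 to 8.89 in WTCR and 5.39 to 6.14 in Dgat1-/-AL, but 5.67 in the array labelled WTAL replicate 2, against 7.86 and 8.04 in the other WTAL arrays, so that this array goes against its label. Dgat1-/-AL replicate 1 held the highest of the 9 signals for 15.2% of all probe sets, against 7.6% to 13.3% for the other arrays. The hepatocyte markers fixed for the check averaged 12.81 to 13.08 in all 9 arrays. Within a group, the SD of the median probe set was 0.10 in WTAL, 0.10 in WTCR and 0.12 in Dgat1-/-AL on the log2 scale.

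Leptin and adiponectin are hormones of fat cells that reach the liver in the blood. Leptin binds LEPR, a class I cytokine receptor with no kinase of its own, which is bound by the kinase JAK2. JAK2 phosphorylates the receptor and the transcription factor STAT3, which enters the nucleus and induces genes that include Socs3. SOCS3 then blocks the receptor and JAK2, and the phosphatase PTP1B, product of Ptpn1, removes phosphate from JAK2. Adiponectin acts through ADIPOR1 and ADIPOR2, which are members of the PAQR family of membrane proteins and not cytokine receptors. In liver, ADIPOR1 is linked mainly to AMP-activated kinase (AMPK) and ADIPOR2 to PPAR alpha and fatty acid oxidation.

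The promoters of these genes were read from RefSeq on the mouse build GRCm38.p6, as the 250 bases upstream of each annotated start. All 7 genes were matched, with 9 windows because Lepr and Adipor1 have 2 annotated starts each. The letters TTCNNNGAA, the general form of a STAT binding site, read the same on either strand. They were present in 1 of the 9 windows, that of Socs3, and in 2306 of 32851 promoters of the same length in the table (7.02%). In the Socs3 window they begin 154 bases before the start, as TTCTTAGAA. The Socs3 window is shown for this match and the Adipor2 window because Adipor2 was the member whose mRNA changed. Socs3 lies on the minus strand (chr11:117969367-117969616) and so does Adipor2 (chr6:119388735-119388984). Both are written 5′ to 3′ along the gene, with the letters of the motif in capitals.
Socs3: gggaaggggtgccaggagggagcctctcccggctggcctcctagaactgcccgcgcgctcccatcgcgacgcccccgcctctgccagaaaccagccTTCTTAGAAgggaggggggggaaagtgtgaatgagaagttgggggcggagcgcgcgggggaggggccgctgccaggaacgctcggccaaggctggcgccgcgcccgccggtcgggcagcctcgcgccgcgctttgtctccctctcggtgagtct
Adipor2: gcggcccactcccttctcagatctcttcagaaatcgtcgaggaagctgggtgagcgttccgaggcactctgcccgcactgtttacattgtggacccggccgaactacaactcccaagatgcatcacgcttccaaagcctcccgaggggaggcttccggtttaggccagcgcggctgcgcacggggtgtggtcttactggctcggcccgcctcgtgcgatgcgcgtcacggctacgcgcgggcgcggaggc
The Adipor2 window holds no TTCNNNGAA and has a GC content of 64.8%, against 71.6% in the Socs3 window and a median of 52.4% over all promoters. A match is a run of letters and not a measured binding site, and no binding was measured here.

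Signals are log2 values made by robust multi-array averaging (RMA), in which a difference of 1 is a doubling. A difference counted as called where the fold exceeded 1.3 and the unadjusted limma p was under 0.05, the rule of the study. The p adjusted over all 28815 probe sets is given beside the calls of members and of named list genes, but not those of cell markers. Adipor2 was the only one of the 8 probe sets called in WTCR against WTAL, and again in WTCR against Dgat1-/-AL, and it was lower in WTCR each time. None was called in Dgat1-/-AL against WTAL. By the same rule 8.06%, 8.59% and 1.23% of all probe sets were called in these comparisons, and 3.81% and 3.93% were called lower in the first and second. The share of members called, 1 of 8, is thus near the share of all probe sets. The median log2 fold change over the 8 was 0.02 in WTCR and 0.07 in Dgat1-/-AL against WTAL and -0.04 in WTCR against Dgat1-/-AL, beside medians of 0.00, 0.00 and 0.01 over all probe sets. The comparisons against WTAL share the same 3 WTAL arrays.

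**Figure D1:**
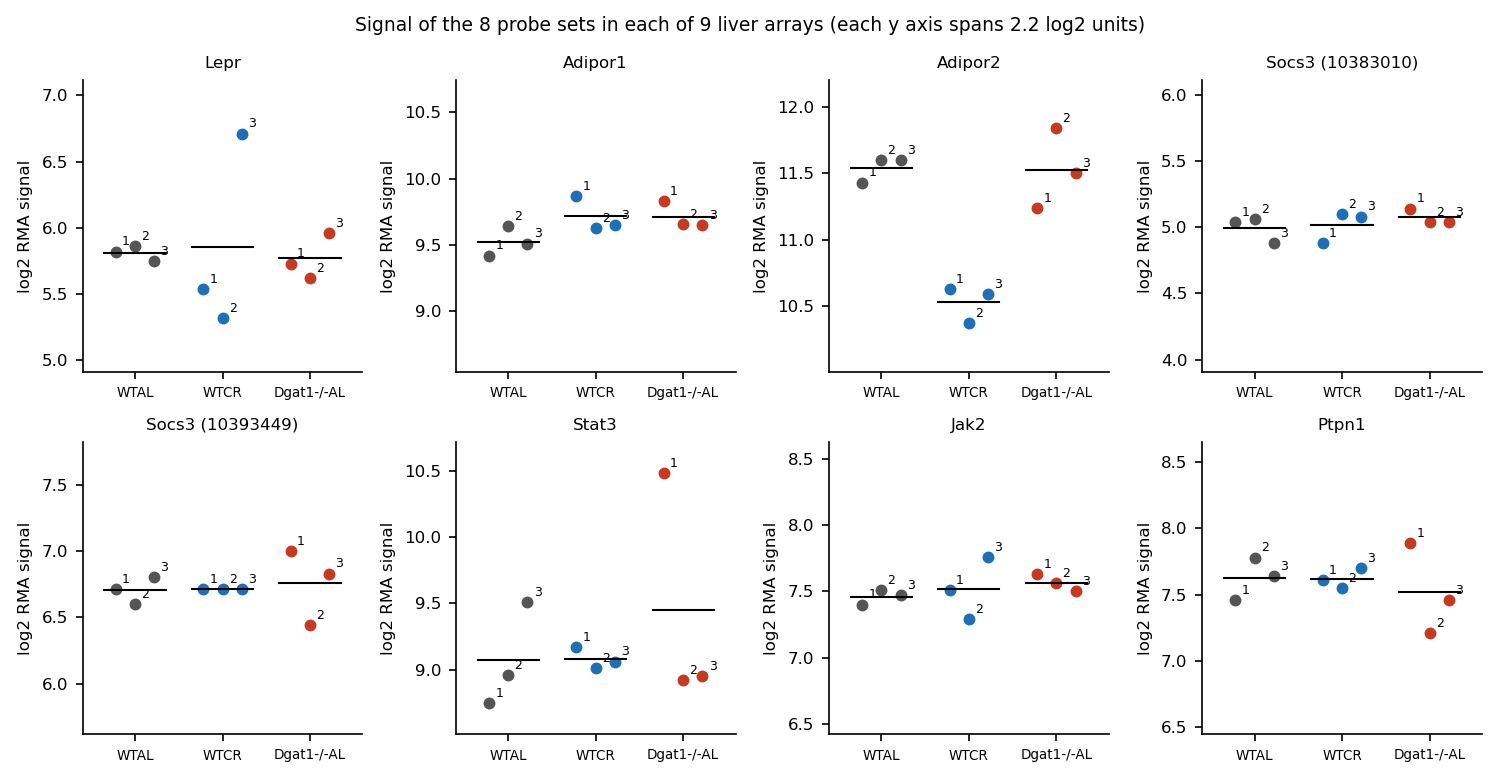
Log2 RMA signal (y axis, 2.2 log2 units in every panel) of the 8 probe sets. Groups run along the x axis, points are single arrays with their replicate numbers, and lines are group means. The 3 WTCR arrays lie below all others for Adipor2, WTCR replicate 3 lies alone at 6.71 for Lepr, and Dgat1-/-AL replicate 1 lies alone at 10.48 for Stat3.

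Adipor2 mRNA was lower in WTCR livers. The log2 signal was 11.43, 11.60 and 11.60 in WTAL replicates 1 to 3, 10.63, 10.37 and 10.59 in WTCR, and 11.24, 11.84 and 11.50 in Dgat1-/-AL. All 3 WTCR arrays lay below all 6 others, with a gap from 10.63 to 11.24. The mean was 11.54 ± 0.10 in WTAL, 10.53 ± 0.14 in WTCR and 11.53 ± 0.30 in Dgat1-/-AL (SD, n = 3 mice per group). WTCR was 2.02-fold lower than WTAL, a log2 fold change of -1.01 ± 0.15 (SE; 95% interval -1.35 to -0.68, limma adjusted p = 0.014), and 176 of the 28815 probe sets had a lower value in this comparison. An adjusted p under 0.05 was reached by 3.03% of all probe sets. Groups did not overlap for 19.6% of them.

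Against Dgat1-/-AL the Adipor2 signal of WTCR was 1.99-fold lower (log2 fold change -1.0 ± 0.15, 95% interval -1.33 to -0.66, limma adjusted p = 0.014), with an adjusted p under 0.05 for 3.06% and no overlap between the groups for 16.1% of all probe sets. Dgat1-/-AL and WTAL overlapped and differed by -0.02 ± 0.15, with an interval of -0.35 to 0.32. Without WTAL replicate 2 and Dgat1-/-AL replicate 1 together, WTCR was lower by -0.98 than WTAL and by -1.14 than Dgat1-/-AL, and both calls held. The adjusted p rose past 0.05 in WTCR against WTAL without WTAL replicate 3 (-0.99, adjusted p = 0.067) or WTCR replicate 2 (-0.93, adjusted p = 0.051). It did so in WTCR against Dgat1-/-AL without WTCR replicate 2 (-0.92, adjusted p = 0.055) or 3 (-1.03, adjusted p = 0.055), without Dgat1-/-AL replicate 3 (-1.01, adjusted p = 0.051), and with only these 2 groups in the model (-1.0, adjusted p = 0.075). With the WTCR and Dgat1-/-AL arrays of one number paired in a fit of these 2 groups, the log2 fold change was -1.0 and the adjusted p 0.091.

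Liver RNA was measured in bulk, so fewer cells of a type and less RNA per cell cannot be told apart. Some markers of cells other than hepatocytes were called lower as well in WTCR against WTAL. Of all probe sets 3.81% were called lower there and 8.06% in either direction. Of the lymphocyte markers 5 of 8 probe sets were called lower, and their mean signal was 5.63 to 5.85 in WTAL, 5.15 to 5.27 in WTCR and 5.46 to 5.65 in Dgat1-/-AL. Of the stellate cell markers 4 of 9 were lower (7.80 to 7.85 in WTAL, 7.57 to 7.61 in WTCR and 7.80 to 7.97 in Dgat1-/-AL). Of the macrophage markers 3 of 12 were lower and 1 higher (8.12 to 8.73, 7.88 to 8.55 and 7.93 to 8.36), and of the sinusoidal endothelial markers 1 of 10 was lower (7.52 to 7.71, 7.20 to 7.59 and 7.62 to 7.91). Among hepatocyte markers 1 of 9 was higher and none lower (12.81 to 12.90, 12.91 to 13.08 and 12.81 to 13.03). None of the 4 cholangiocyte markers was called (5.66 to 5.78, 5.66 to 5.69 and 5.68 to 5.85), and of the adipocyte markers 1 of 6 was higher and none lower (4.97 to 5.03, 5.06 to 5.12 and 4.94 to 5.11). In WTCR against Dgat1-/-AL, where 3.93% of all probe sets were called lower and 8.59% in either direction, the marker calls differed. Of the 10 sinusoidal endothelial markers 7 were lower and 1 higher, with a median log2 fold change of -0.54. There 3 of the 9 stellate cell markers were lower and 1 higher, 3 of the 8 lymphocyte and 1 of the 12 macrophage markers were lower, 2 of the 9 hepatocyte markers were higher, and no adipocyte or cholangiocyte marker was called. In Dgat1-/-AL against WTAL 1.23% of all probe sets were called in either direction. There 4 of the 12 macrophage markers were lower, with a median log2 fold change of -0.49. Of the 10 sinusoidal endothelial markers 3 were higher and 2 lower, and 1 of the 8 lymphocyte markers was lower. No marker of the other cell types was called there. The part of these cells in either Adipor2 difference, or in those of the gene lists, was not tested.

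Adipor1, the other adiponectin receptor, did not pass the rule in any comparison. Its log2 signal was 9.42, 9.64 and 9.51 in WTAL, 9.87, 9.63 and 9.65 in WTCR, and 9.83, 9.66 and 9.65 in Dgat1-/-AL. The WTCR and WTAL arrays overlapped, the lowest WTCR array at 9.63 lying just below the highest WTAL array at 9.64. The lowest Dgat1-/-AL array, at 9.65, lay just above it, an absence of overlap that 7.02% of all probe sets showed in that comparison. The difference from WTAL was 0.20 ± 0.09 in WTCR (95% interval -0.01 to 0.41, limma adjusted p = 0.36) and 0.20 ± 0.09 in Dgat1-/-AL (-0.01 to 0.41, adjusted p = 0.97). The WTAL array at 9.64 was replicate 2, which goes against its label in Dgat1. The overlap with WTCR rests on that array, as the other WTAL arrays lay at 9.42 and 9.51. Without it the differences were 0.258 in WTCR and 0.255 in Dgat1-/-AL, still short of the fold. Their unadjusted limma p was 0.034 and 0.035, and the adjusted p 0.31 and 0.99. The groups away from WTAL differed from each other by 0.00 (interval -0.21 to 0.21). Whether the 2 adiponectin receptors differ from each other in their response to CR was not tested.

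Lepr spread more among WTCR livers than between groups. Its log2 signal was 5.82, 5.86 and 5.75 in WTAL, 5.54, 5.32 and 6.71 in WTCR, and 5.73, 5.62 and 5.96 in Dgat1-/-AL. WTCR held the lowest and the highest of the 9 values, with replicates 1 and 2 below every other array and replicate 3 above every other. The SD in WTCR was 0.75, and 99.8% of all probe sets had a smaller one in that group. The log2 fold change against WTAL was 0.04 ± 0.31 in WTCR (95% interval -0.66 to 0.74, limma adjusted p = 0.98) and -0.04 ± 0.31 in Dgat1-/-AL (-0.74 to 0.66), and WTCR exceeded Dgat1-/-AL by 0.09 (-0.61 to 0.79). The SE is from a spread shared by all 9 arrays, so the WTCR spread also widens the interval of Dgat1-/-AL against WTAL. The SD was 0.06 in WTAL and 0.17 in Dgat1-/-AL. Without WTCR replicate 3 the value for WTCR turned to -0.39 against WTAL, past the rule at an unadjusted p of 0.012 but with an adjusted p of 0.20, and to -0.34 against Dgat1-/-AL, short of the fold. The direction of Lepr in WTCR therefore rests on 1 array. The annotation gives the probe set a gene and no isoform, so the long, signalling form of the receptor and its short forms were not told apart.

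Jak2, the kinase bound to LEPR, was not called in any comparison. Its log2 signal was 7.40, 7.51 and 7.47 in WTAL, 7.51, 7.29 and 7.76 in WTCR, and 7.63, 7.56 and 7.5 in Dgat1-/-AL. As for Lepr, WTCR replicate 2 was the lowest and WTCR replicate 3 the highest of the 9 arrays, and the groups overlapped. The SD was 0.24 in WTCR, with a smaller one for 87.8% of all probe sets. Pearson's r between the Lepr and Jak2 signals over the 9 arrays was 0.764, given as a description only. The differences from WTAL were 0.06 ± 0.11 in WTCR (95% interval -0.19 to 0.31) and 0.10 ± 0.11 in Dgat1-/-AL (-0.15 to 0.35), and WTCR differed from Dgat1-/-AL by -0.04 (-0.29 to 0.21).

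Stat3, the transcription factor that carries the leptin signal to the nucleus, was highest in a single Dgat1-/-AL liver. Its log2 signal was 8.75, 8.96 and 9.51 in WTAL, 9.17, 9.01 and 9.06 in WTCR, and 10.48, 8.92 and 8.95 in Dgat1-/-AL. Dgat1-/-AL replicate 1 lay above all other arrays, while replicates 2 and 3 of that group lay among the WTAL values. The SD was 0.89 in Dgat1-/-AL, with a smaller one for 99.6% of all probe sets, 0.39 in WTAL and 0.08 in WTCR. The log2 fold change against WTAL was 0.38 ± 0.39 in Dgat1-/-AL (95% interval -0.50 to 1.26, limma adjusted p = 0.97) and turned to -0.14 without that array. It was 0.01 ± 0.39 in WTCR (-0.88 to 0.89), and WTCR against Dgat1-/-AL gave -0.37 (-1.25 to 0.51). The SE is from a spread shared by all 9 arrays, so Dgat1-/-AL replicate 1 also widens the interval of WTCR against WTAL. An mRNA level does not show how much STAT3 protein was phosphorylated.

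**Figure D2:**
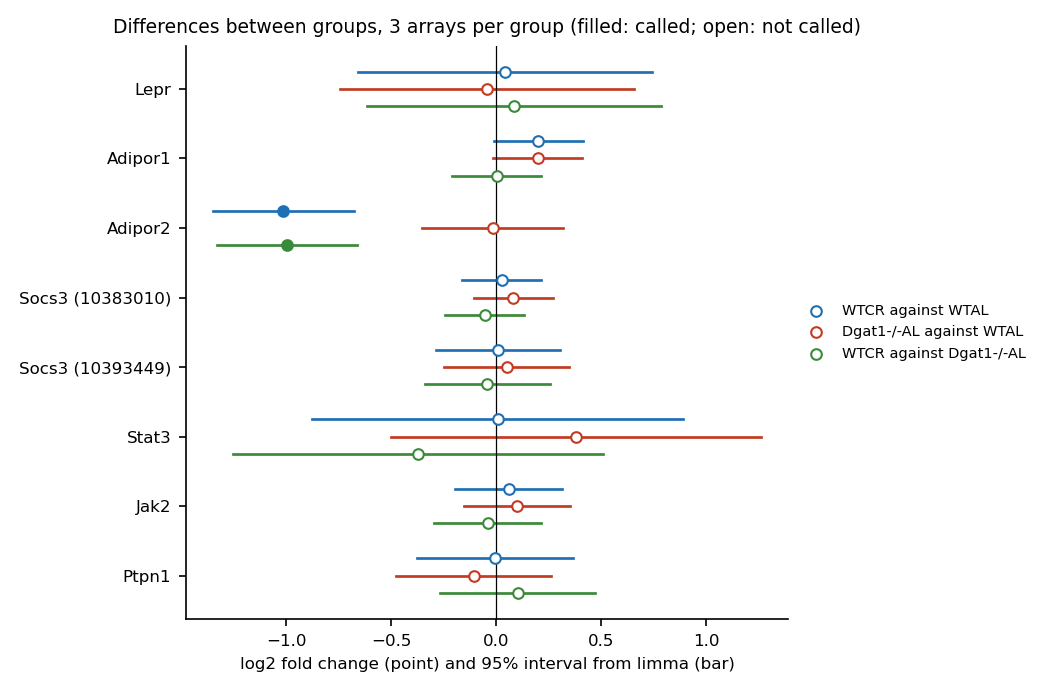
Log2 fold change (x axis, points) with its 95% interval from limma (bars) for each of the 8 probe sets (y axis) in the 3 comparisons, with filled points for called differences. The intervals of Adipor2 in the comparisons of WTCR lie wholly below 0, and those of Stat3 and Lepr are the widest.

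Socs3, which encodes the feedback inhibitor of LEPR and JAK2, was not called at either probe set. At probe set 10393449 the log2 signal was 6.71, 6.60 and 6.80 in WTAL, 6.71 in all 3 WTCR arrays, and 7.0, 6.44 and 6.83 in Dgat1-/-AL. The Dgat1-/-AL arrays held the highest and the lowest value and enclosed the other groups. At probe set 10383010 it was 5.04, 5.06 and 4.88 in WTAL, 4.88, 5.10 and 5.08 in WTCR, and 5.14, 5.04 and 5.04 in Dgat1-/-AL, and all groups overlapped. The signals at 10383010 lay below the array medians of 5.8 to 5.84, and 34.3% of all probe sets had a lower mean. At such low signals the absence of a call at this probe set cannot decide whether Socs3 differed. The 2 probe sets did not rise and fall together, with a Pearson's r of 0.098 over the 9 arrays, to which the same limit applies. The differences from WTAL were 0.01 ± 0.13 and 0.03 ± 0.08 in WTCR, with 95% intervals of -0.29 to 0.31 and -0.16 to 0.21, and 0.05 ± 0.13 and 0.08 ± 0.08 in Dgat1-/-AL, with intervals of -0.25 to 0.35 and -0.11 to 0.27. WTCR against Dgat1-/-AL gave -0.04 and -0.06. The same value in all 3 WTCR arrays, to the third decimal, was also found for 2.73% of all probe sets, and 36.99% had 1 value in 3 or more of the 9 arrays.

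Ptpn1, which encodes the phosphatase PTP1B, was likewise not called. Its log2 signal was 7.46, 7.78 and 7.64 in WTAL, 7.61, 7.55 and 7.70 in WTCR, and 7.89, 7.21 and 7.46 in Dgat1-/-AL. The Dgat1-/-AL arrays again held both the highest and the lowest value. The log2 fold change was -0.01 ± 0.16 in WTCR (95% interval -0.38 to 0.36) and -0.11 ± 0.16 in Dgat1-/-AL (-0.48 to 0.26) against WTAL, and 0.10 (-0.27 to 0.47) in WTCR against Dgat1-/-AL.

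Dgat1-/-AL replicate 1 held the highest of the 9 signals for 4 of the 8 probe sets, those of Stat3, Ptpn1 and Socs3. WTCR replicate 3 held it for 2 (Lepr and Jak2), and WTCR replicate 1 (Adipor1) and Dgat1-/-AL replicate 2 (Adipor2) for 1 each. Over the 9 arrays, Stat3 correlated with Socs3 probe set 10393449 (Pearson's r 0.725) and with Ptpn1 (0.644), again as a description. Adipor2 correlated weakly with all other members, with r between -0.358 for Adipor1 and 0.039 for Jak2.

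The genes of the hormones themselves, which are expressed in fat cells, did not differ between the groups by the rule. The log2 signal of Lep, which encodes leptin, was 4.24 to 4.58 and that of Adipoq, which encodes adiponectin, 3.28 to 3.71 over the 9 arrays. Both lay below the array medians of 5.8 to 5.84. At such low signals the absence of a call cannot decide whether these genes differed. The Lep signal was 4.58, 4.36 and 4.34 in WTAL, 4.34, 4.45 and 4.32 in WTCR, and 4.36, 4.32 and 4.24 in Dgat1-/-AL, and its groups overlapped. Circulating hormone, made in fat, was not measured on these arrays.

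Among 14 probe sets of 12 partners of leptin signalling (adaptors, phosphatases and receptor traffic genes), 1 was lower in WTCR against WTAL and none was called in the other comparisons. The median log2 fold change of the list was -0.01 in WTCR and -0.02 in Dgat1-/-AL. The 1 was Ptpn6, which encodes the phosphatase SHP-1 that is abundant in blood cells. Its signal was 7.87, 8.16 and 8.23 in WTAL and 7.59, 7.5 and 7.64 in WTCR, a log2 fold change of -0.51 ± 0.11 (limma adjusted p = 0.051). Ptprc, the general leukocyte marker CD45, fell by -1.28 ± 0.18 in the same comparison, and its part in the Ptpn6 difference was not tested. Leprot, which shares its locus with Lepr and encodes a protein of receptor traffic, had signals of 7.35, 7.30 and 7.53 in WTAL and 7.32, 7.25 and 7.59 in WTCR and differed by -0.01 ± 0.12.

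Of the other JAK and STAT genes, 3 of 7 probe sets were lower in WTCR against WTAL and none was higher, beside 3.81% of all probe sets called lower. The median log2 fold change of the list was -0.34. Stat2, which carries interferon signals, was lower by -0.63 ± 0.20 (limma adjusted p = 0.16), and Stat5b, which carries the growth hormone signal, by -0.43 ± 0.12 (adjusted p = 0.12). Stat6, which carries the interleukin 4 signal, was lower by -0.41 ± 0.15 (adjusted p = 0.22). The calls of Stat5b and Stat6 were lost without WTAL replicate 3 (-0.35 and -0.39) or WTCR replicate 2 (-0.38 and -0.28), and that of Stat6 also without WTAL replicate 1 (-0.41) or WTCR replicate 3 (-0.40), which left 1 of the 7 called without WTAL replicate 3 or WTCR replicate 2.

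Against Dgat1-/-AL, 4 of these 7 probe sets were lower in WTCR, beside 3.93% of all probe sets. Stat5b fell most, by -0.75 ± 0.12 (limma adjusted p = 0.020), with signals of 7.94, 7.86 and 8.08 in WTCR and 8.96, 8.56 and 8.60 in Dgat1-/-AL. With the arrays of these groups paired by number, the adjusted p of Stat5b was 0.074, and with 1 array left out it was up to 0.076. The others were Stat2 (-0.64, adjusted p = 0.15), Stat5a (-0.42, adjusted p = 0.095) and the kinase gene Tyk2 (-0.38, adjusted p = 0.19). Their calls were lost without Dgat1-/-AL replicate 1 (-0.37, -0.30 and -0.23), the array with the highest Stat3 signal, and that of Tyk2 also without WTCR replicate 2 (-0.34) or 3 (-0.34), while Stat5b stayed called (-0.62 to -0.82 with any 1 array left out). With array weights the calls of Stat5a (-0.30) and Tyk2 (-0.31) were lost as well, and with arrays centred on their medians that of Tyk2 (-0.38), just short of the fold. None of the 7 was called in Dgat1-/-AL against WTAL, but 1 was without WTAL replicate 3 and 1 without Dgat1-/-AL replicate 2.

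The SOCS genes other than Socs3 gave no call against WTAL in 10 probe sets of 7 genes. This count was 2 in Dgat1-/-AL without Dgat1-/-AL replicate 1, without that array and WTAL replicate 2, or with array weights, and 1 in WTCR without WTAL replicate 1, without WTCR replicate 1 or with array weights. Against Dgat1-/-AL 3 were higher in WTCR, beside 8.59% of all probe sets called in either direction. The 3 were Socs2 at probe set 10394674 (0.50 ± 0.20, limma adjusted p = 0.25), Cish (0.44 ± 0.15, adjusted p = 0.19) and Socs6 at probe set 10566668. Socs6 gave 0.41 ± 0.08 there (adjusted p = 0.036, or 0.10 with the arrays paired by number). Socs2 and Cish are feedback inhibitors induced through STAT5. The other probe sets of these genes were not called, with 0.12 ± 0.14 for Socs2 at 10372069 and 0.15 ± 0.11 and -0.01 ± 0.06 for Socs6 at 10460118 and 10460116. The log2 signal at 10460116 was only 2.90 to 2.99 over the 9 arrays, too low for the absence of a call there to decide. Each call was lost without Dgat1-/-AL replicate 3 (0.46, 0.37 and 0.36). The calls of Socs2 and Cish were lost without Dgat1-/-AL replicate 2 (both 0.37), that of Cish without WTCR replicate 1 (0.31), those of Socs2 and Socs6 without WTCR replicate 2 (0.49 and 0.37), and that of Socs2 without WTCR replicate 3 (0.43).

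Of the class I cytokine receptors other than Lepr, 4 of 9 probe sets were lower and 1 was higher in WTCR against WTAL. Of all probe sets 8.06% were called there in either direction. Lifr, the receptor for leukemia inhibitory factor, fell most. Its log2 signal was 10.90, 10.36 and 12.23 in WTAL, 9.10, 8.92 and 9.40 in WTCR, and 10.21, 10.52 and 10.30 in Dgat1-/-AL, with all WTCR arrays below the rest. WTCR and WTAL did not overlap for 19.6% of all probe sets. The log2 fold change of Lifr in WTCR against WTAL was -2.03 ± 0.40 (limma adjusted p = 0.034). With 1 array left out it was -2.43 to -1.49, with adjusted p up to 0.12. Ghr, the growth hormone receptor, was 11.49, 11.36 and 11.91 in WTAL, 10.90, 10.40 and 10.51 in WTCR, and 11.13, 11.54 and 11.55 in Dgat1-/-AL, a fall of -0.98 ± 0.19 in WTCR (adjusted p = 0.031). With 1 array left out this fall was -1.13 to -0.82, with adjusted p up to 0.11. Il6st, which encodes the gp130 subunit that signals through JAKs and STAT3, fell by -0.56 ± 0.15 (adjusted p = 0.088).

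Il6ra, the subunit that binds interleukin 6, was higher in WTCR by 0.77 ± 0.25 (limma adjusted p = 0.17), a call lost without WTAL replicate 1 (0.66). In WTCR against Dgat1-/-AL the counts were again 4 lower and 1 higher. Lifr was at -1.21 (adjusted p = 0.17), Ghr at -0.80 (adjusted p = 0.059), Il6ra at 0.72 (adjusted p = 0.19) and Il6st at -0.64 (adjusted p = 0.055). There the Lifr call was lost without WTCR replicate 2 (-1.1), and the Il6ra call without WTCR replicate 1 (0.69) or Dgat1-/-AL replicate 2 (0.54) or 3 (0.57). None of the 9 was called in Dgat1-/-AL against WTAL, but 1 was without WTAL replicate 2, and 1 without that array and Dgat1-/-AL replicate 1.

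Adiponectin and its effectors, 12 probe sets of 11 genes, gave 3 calls in WTCR against WTAL, all higher, and none in Dgat1-/-AL. Of all probe sets 8.06% were called in WTCR against WTAL in either direction. Ppargc1a, which encodes the coactivator PGC-1 alpha of mitochondrial and fasting genes, was higher at its 2 probe sets. At probe set 10529979 the signal was 6.65, 6.52 and 6.16 in WTAL, 7.65, 7.21 and 7.5 in WTCR, and 6.81, 6.35 and 6.69 in Dgat1-/-AL. WTCR exceeded WTAL by 1.01 ± 0.17 there (limma adjusted p = 0.022, or up to 0.084 with 1 array left out). At probe set 10529977 it did so by 0.84 ± 0.21 (adjusted p = 0.077). Prkaa2, which encodes a catalytic subunit of AMPK, was higher by 0.46 ± 0.15 (adjusted p = 0.18), a call lost without WTCR replicate 1 (0.32) or 3 (0.42). Ppara, the nuclear receptor that acts below ADIPOR2, differed by 0.16 ± 0.23 in WTCR and 0.02 ± 0.23 in Dgat1-/-AL, and Appl1, the adaptor of the adiponectin receptors, by 0.16 ± 0.14 and -0.07 ± 0.14, all short of the rule.

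In WTCR against Dgat1-/-AL the same 3 probe sets were higher. Ppargc1a was higher by 0.84 at probe set 10529979 (limma adjusted p = 0.040) and by 0.57 at 10529977 (adjusted p = 0.22). Prkaa2 was higher by 0.40 (adjusted p = 0.25). There the calls of Ppargc1a at probe set 10529977 and of Prkaa2 were lost without WTCR replicate 1 (0.51 and 0.26) or 3 (0.50 and 0.36), which left 1 call. The former was also lost without Dgat1-/-AL replicate 1 (0.39), and the latter without Dgat1-/-AL replicate 2 (0.29) or 3 (0.42) or with only these groups in the model (0.40).

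**Figure D3:**
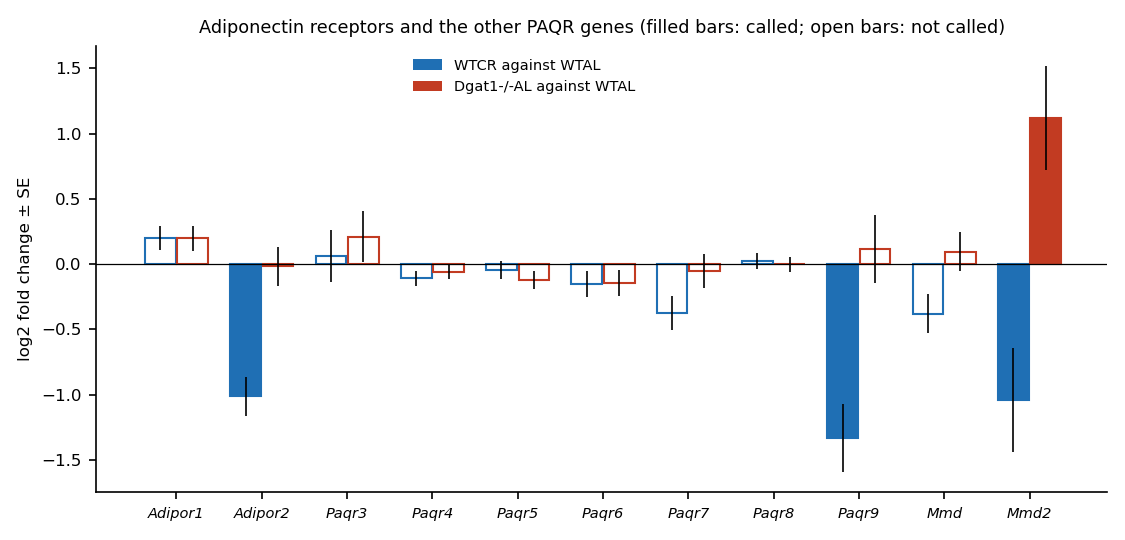
Log2 fold change with its SE from limma (y axis, bars) of Adipor1, Adipor2 and the 9 other genes of the PAQR family (x axis) in WTCR and in Dgat1-/-AL against WTAL, with filled bars for called differences. Adipor2, Paqr9 and Mmd2 fell by about 1 or more log2 units in WTCR, while Mmd2 rose in Dgat1-/-AL.

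The PAQR family, to which the adiponectin receptors belong, had 9 other members on the array, with 1 probe set each. In WTCR against WTAL 2 were lower, Paqr9, a membrane progestin receptor, and Mmd2, beside 3.81% of all probe sets called lower. The Paqr9 signal was 9.83, 9.76 and 10.27 in WTAL, 8.57, 8.38 and 8.92 in WTCR, and 10.66, 9.85 and 9.70 in Dgat1-/-AL. As for Adipor2, all 3 WTCR arrays lay below the other 6. WTCR and WTAL did not overlap for 19.6% of all probe sets. The log2 fold change of Paqr9 against WTAL was -1.33 ± 0.26 (limma adjusted p = 0.034). With 1 array left out it was -1.48 to -1.17, with adjusted p up to 0.13. Against Dgat1-/-AL Paqr9 was lower by -1.45 ± 0.26 (adjusted p = 0.026, or 0.090 with the arrays paired by number). With 1 array left out this value was -1.63 to -1.15, with adjusted p up to 0.098.

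Mmd2 was 8.25, 9.49 and 7.77 in WTAL, 7.32, 7.75 and 7.32 in WTCR, and 9.73, 9.18 and 9.96 in Dgat1-/-AL. WTAL replicate 2, the array that goes against its label in Dgat1, lay at 9.49 among the Dgat1-/-AL arrays for this gene too. Mmd2 differed by -1.04 ± 0.40 in WTCR (limma adjusted p = 0.25) and 1.12 ± 0.40 in Dgat1-/-AL (adjusted p = 0.97) against WTAL. The WTCR call was lost without WTAL replicate 2 (-0.55), WTCR replicate 1 (-0.97) or WTCR replicate 3 (-0.97), and without the third group in the model (-1.04). The Dgat1-/-AL call was lost when WTAL replicate 1 (1.0) or 3 (0.76) was left out, and likewise Dgat1-/-AL replicate 1 (1.07) or 3 (0.96). It was kept without WTAL replicate 2, where the value was the largest with any 1 array left out (1.61). In none of these fits was the limma adjusted p below 0.58. Between WTCR and Dgat1-/-AL themselves, Mmd2 differed by -2.16 ± 0.40 (adjusted p = 0.028, or 0.056 with the arrays paired by number). These groups did not overlap, as for 16.1% of all probe sets. With any 1 array left out the value remained between -2.38 and -1.99, with adjusted p up to 0.10. Mmd was the third PAQR gene called in this comparison, by -0.47 ± 0.15 (adjusted p = 0.14), a call lost without WTCR replicate 2 (-0.31).

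Genes that STAT3 is known to induce in liver were taken as 16 probe sets of 15 genes, most of them acute-phase proteins. In WTCR against WTAL 2 were higher, the transcription factor genes Myc (0.69 ± 0.19, limma adjusted p = 0.10) and Cebpd (0.54 ± 0.14, adjusted p = 0.083). In the same comparison 2 were lower, Saa2, an acute-phase apolipoprotein (-1.85 ± 0.79, adjusted p = 0.31), and Fga, the alpha chain of fibrinogen, at probe set 10492755 (-1.23 ± 0.37, adjusted p = 0.14). The other Fga probe set, 10492748, gave -0.50 ± 0.32. Of all probe sets 8.06% were called in this comparison in either direction. The Saa2 call was lost on leaving out any 1 WTAL array (-1.88, -2.05 and -1.63 for replicates 1 to 3), WTCR replicate 2 (-1.66) or 3 (-1.45), or Dgat1-/-AL replicate 2 (-1.85).

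**Figure D4:**
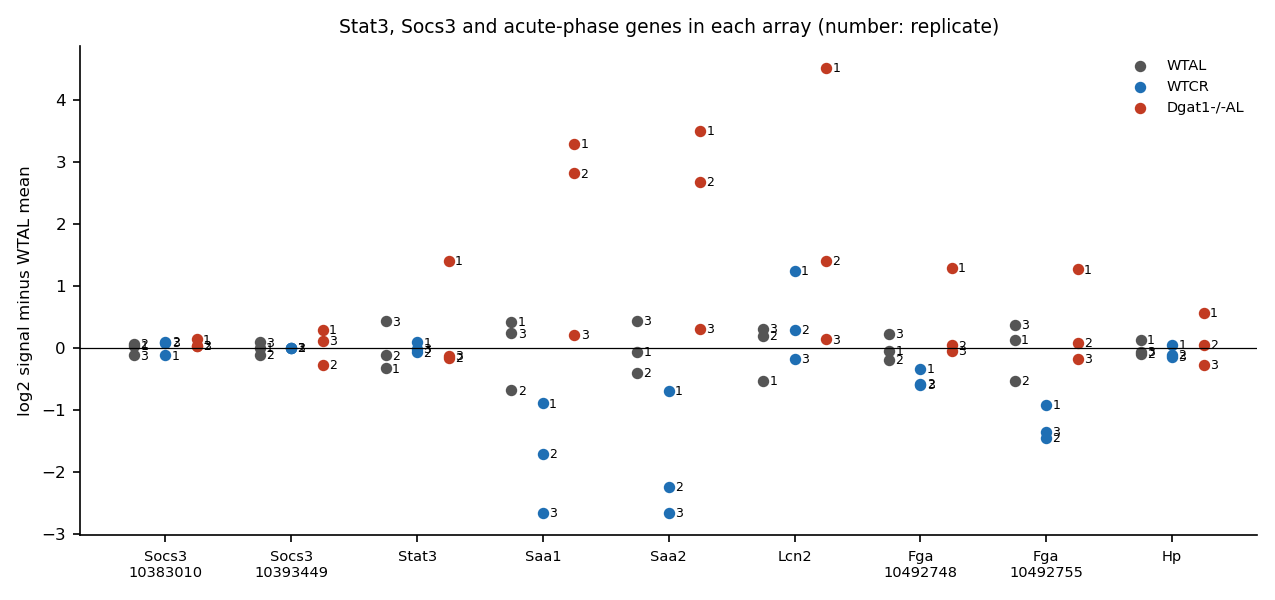
Log2 signal minus the WTAL mean (y axis) of Stat3, Socs3 and 5 acute-phase genes (x axis, with the probe set where a gene has 2) in each array, coloured by group and marked with its replicate number. Dgat1-/-AL replicate 1 is the highest array for each, with Lcn2 at 12.38 and Saa2 at 11.78 on the log2 scale.

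In Dgat1-/-AL against WTAL 2 of the 16 were called, both higher, and none lower, beside 1.23% of all probe sets called in either direction. Saa1 was 7.26, 6.15 and 7.07 in WTAL, 5.94, 5.13 and 4.18 in WTCR, and 10.13, 9.65 and 7.04 in Dgat1-/-AL. Saa2 was 8.21, 7.88 and 8.72 in WTAL, 7.59, 6.04 and 5.62 in WTCR, and 11.78, 10.95 and 8.58 in Dgat1-/-AL. Dgat1-/-AL replicates 1 and 2 lay above all WTAL arrays for the pair, and replicate 3 among them. Saa1 and Saa2 are near-identical copies, so that their probes may share transcripts.

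The log2 fold changes in Dgat1-/-AL were 2.11 ± 0.78 for Saa1 and 2.17 ± 0.79 for Saa2 (limma adjusted p = 0.97 for each). These calls were lost without WTAL replicate 2 (1.77 and 1.97), Dgat1-/-AL replicate 1 (1.51 and 1.5) or Dgat1-/-AL replicate 2 (1.76 and 1.91), and that of Saa2 also without WTAL replicate 1 (2.14). With array weights the values were 1.53 and 1.54 and neither was called. Of the 16 probe sets 10 had their highest signal in Dgat1-/-AL replicate 1, the array that also held the highest Stat3, Socs3 and Ptpn1 signals and the highest signal of 15.2% of all probe sets. Lcn2, which encodes the acute-phase protein lipocalin 2, was 12.38 there, against 9.26 and 8.0 in the other Dgat1-/-AL arrays and 7.33 to 8.17 in WTAL. No STAT3-responsive probe set was called in Dgat1-/-AL against WTAL without this array, nor without WTAL replicate 2 or Dgat1-/-AL replicate 2, nor with array weights, and 1 was called without WTAL replicate 1.

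In WTCR against Dgat1-/-AL 4 of the 16 were lower and 2 higher, beside 8.59% of all probe sets called in either direction. Saa2 (-4.02 ± 0.79, limma adjusted p = 0.035) and Saa1 (-3.86 ± 0.78, adjusted p = 0.038) did not overlap between these groups, as for 16.1% of all probe sets. Without any 1 array they were between -4.95 and -3.35 and between -4.81 and -3.26, with adjusted p up to 0.12 and 0.13. Fga gave -1.63 ± 0.37 at probe set 10492755 (adjusted p = 0.058). Myc was higher by 0.88 ± 0.19 (adjusted p = 0.045, or up to 0.14 with 1 array left out). With the arrays paired by number Lcn2 (-1.56) was called lower as well, with an adjusted p of 0.28.

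**Figure D5:**
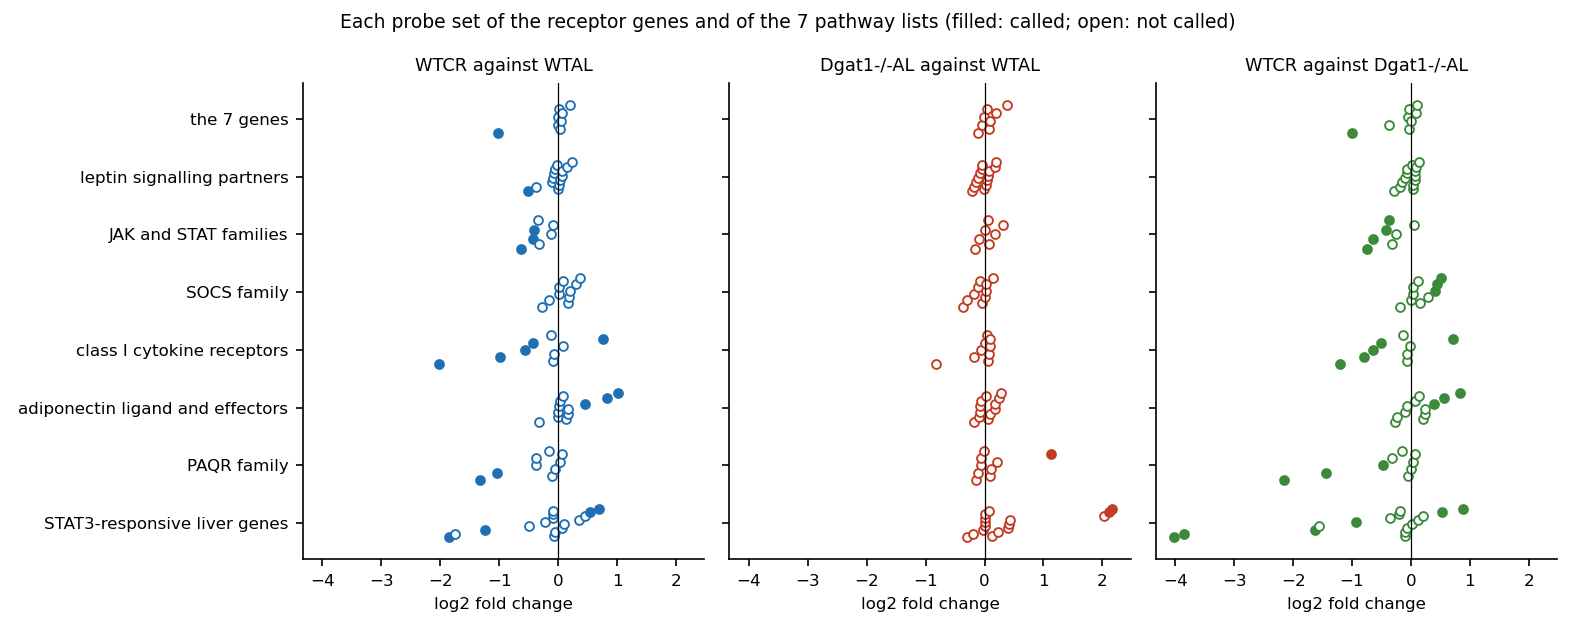
Log2 fold change (x axis) of each probe set of the 7 receptor signalling genes and of the 7 lists set beside them (y axis) in each of the 3 comparisons, with filled points for called differences. In WTCR against WTAL the called JAK and STAT probe sets lie below 0 and the called adiponectin effectors above it, and in Dgat1-/-AL against WTAL the calls are Mmd2, Saa1 and Saa2.

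The probe sets whose pattern over the 9 arrays was most like that of a member were found among 21777 single-symbol probe sets of other genes, or 21776 for Socs3, by Pearson's r. Nearest to Adipor2 were Pea15a, a cytosolic phosphoprotein (r = 0.986), Marcks, a substrate of protein kinase C (0.985), and Ifit3, an interferon-induced gene (0.980). Each was also called lower in WTCR against WTAL, by -0.49 ± 0.10, -0.95 ± 0.19 and -1.95 ± 0.20, so that the likeness follows the difference between groups.

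For the other members, none of the nearest genes was called in WTCR against WTAL. Nearest to Stat3 were Ap2a2 (0.989), Plod3 (0.984) and H6pd (0.979), and nearest to Ptpn1 were Akt1s1 (0.955), Ctbp1 (0.951) and Pla2g2f (0.948). Lepr was followed by Fam163a (0.961), Olfr1006 (0.960) and Bbs7 (0.956), Jak2 by Me2 (0.971), 1700025G04Rik (0.961) and Stkld1 (0.937), and Adipor1 by Fbrs (0.990), Ccdc149 (0.981) and Serpinb3a (0.965). For Socs3 they were Kcna10 (0.956), Gm10024 (0.946) and Dock6 (0.933) at probe set 10393449, and Fam83e (0.948), Gm7982 (0.940) and BB014433 (0.939) at probe set 10383010. Over so few arrays many probe sets reach a high r, and these names are given as a description.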

How the data were processed

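Total liver RNA of 9 mice was hybridized to Mouse Gene 1.0 ST arrays, 1 mouse per array. The authors deposited log2 values made with RMA (background correction, quantile normalization and summary of the probes of a set); no genome build is given in the sources used here. Probe sets were named from the platform annotation with current symbols: of 28815, 21780 had 1 symbol, 1605 several and 5430 none. limma 3.58.1 (R 4.3.3) fitted the 3 group means with a spread shared by all 9 arrays, without a filter on low signals, and p was adjusted by the Benjamini-Hochberg method over all probe sets. An exact test of 3 arrays against 3 cannot go below 0.1, so none was used, and the number of arrays limits the precision. Named genes were every member, up to 4 called genes per list with the largest change, and the 3 probe sets most like each member. Dgat1 was named as the check of the labels. Lep, Adipoq, Leprot, Lcn2, Appl1, Ppara, Ptprc and uncalled probe sets of named genes were added after their values were seen. Osmr, and the acute-phase gene Hp drawn in a figure, also lie outside this rule. The members and lists were chosen with earlier results of these data known.

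Replicate numbers come from the labels. Deviations from the group means of same-numbered arrays correlated by 0.477, 0.252 and 0.211 between WTCR and Dgat1-/-AL, which meets the criterion for paired arrays, but by -0.233, 0.045 and -0.075 between WTCR and WTAL and by -0.325, -0.086 and -0.229 between Dgat1-/-AL and WTAL. Values are from the unpaired fit, and those of a paired fit of WTCR and Dgat1-/-AL, chosen after seeing the data, stand beside them where an adjusted p passed 0.05 or a call changed. With the number as a replicate block in the fit of all arrays, Adipor2 gave -1.01 (adjusted p = 0.044) against WTAL and -1.0 (adjusted p = 0.041) against Dgat1-/-AL.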

Additional observations from a re-analysis of the deposited data

How the results depend on the processing

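Adipor2 was called lower in WTCR against WTAL and against Dgat1-/-AL under each of the other samples in the model, replicate block, intensity trend, array weights, median centring and filter on low signals, and with any 1 array left out (-1.07 to -0.93 and -1.14 to -0.84). The number of members called in WTCR against WTAL was 1 to 2 with 1 array left out, the 2 without WTCR replicate 3, where Lepr joined Adipor2. In the other comparisons it stayed at 1 and 0. The replicate block changed no member's call and ended no call among the lists. Values that had not been called changed sign, most of them near 0, but not that of Stat3 in Dgat1-/-AL against WTAL (0.38) or in WTCR against Dgat1-/-AL (-0.37). With array weights, Stat3 (-0.035) and Ptpn1 (0.007) did so in WTCR against WTAL, Lepr (0.001) and Adipor2 (0.038) in Dgat1-/-AL against WTAL, and Socs3 at probe set 10393449 (0.002) and Jak2 (0.033) in WTCR against Dgat1-/-AL. With arrays centred on their medians, Ptpn1 (0.006) did so in WTCR against WTAL. Without WTAL replicate 2 and Dgat1-/-AL replicate 1 together, an alternative chosen after seeing the data, so did Socs3 at probe set 10393449 (-0.044), Stat3 (-0.051) and Ptpn1 (0.074) in WTCR against WTAL; Lepr (0.004), Adipor2 (0.158), Socs3 at probe set 10393449 (-0.125) and Stat3 (-0.194) in Dgat1-/-AL against WTAL; and Socs3 at probe set 10393449 (0.081) and Stat3 (0.143) in WTCR against Dgat1-/-AL.

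With 1 array left out, values that crossed 0 in WTCR against WTAL were Lepr (-0.386 to 0.312), Jak2 (-0.062 to 0.175), Stat3 (-0.156 to 0.226), Ptpn1 (-0.091 to 0.074) and Socs3 (-0.044 to 0.056 at probe set 10393449 and -0.034 to 0.093 at 10383010). In Dgat1-/-AL against WTAL they were Lepr (-0.138 to 0.031), Adipor2 (-0.176 to 0.128), Stat3 (-0.137 to 0.642), Ptpn1 (-0.295 to 0.048) and Socs3 at probe set 10393449 (-0.073 to 0.209). In WTCR against Dgat1-/-AL they were Lepr (-0.343 to 0.355), Adipor1 (-0.072 to 0.061), Jak2 (-0.161 to 0.075), Stat3 (-0.636 to 0.143), Ptpn1 (-0.054 to 0.290) and Socs3 (-0.201 to 0.081 at probe set 10393449 and -0.093 to 0.012 at 10383010). The cause was not tested. Under the rule of an adjusted p under 0.05, calls among the lists in WTCR against WTAL fell to 0 for leptin partners, JAK and STAT genes and STAT3-responsive genes, 1 each for adiponectin effectors and the PAQR family, and 2 for class I receptors. In WTCR against Dgat1-/-AL that rule left 0 calls for class I receptors and 3 for STAT3-responsive genes. It left 1 each for JAK and STAT genes, SOCS genes and adiponectin effectors, and 2 for the PAQR family. In Dgat1-/-AL against WTAL it left 0 for the PAQR family and 0 for STAT3-responsive genes. With array weights the calls in WTCR against WTAL were 2 for leptin partners and 4 for the PAQR family. Without WTCR replicate 1 they were 2 for leptin partners. Beside Stat5a, Tyk2, Saa1 and Saa2, array weights ended the call of Osmr, a receptor for oncostatin M, in WTCR against Dgat1-/-AL (-0.375).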
